A study of Homo sapiens with 6 samples.

Results

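CIRBP and RBM3 are the genes of the human cold-inducible RNA-binding protein pair, and they were taken from the deposited expression table by symbol, 2 of its 58884 genes. RNA-seq had been carried out on immortalized human cardiomyocytes kept at 37 °C in medium with 10% serum and 5% CO2, which the labels name T0519 and the study's text on this experiment names AC16. The cells had received negative control siRNA (NC, 3 libraries) or siRNA against CIRBP (SiCIRBP, 3 libraries), and libraries are named NC_1 to NC_3 and SiCIRBP_1 to SiCIRBP_3. The study tested NC_2, NC_3, SiCIRBP_1 and SiCIRBP_3, so tests over these 4 libraries are given first, with all 6 beside them. It had left out NC_1 and SiCIRBP_2 as the most discrepant in correlation and principal component analysis of these same data. The p-values over 4 libraries do not allow for that choice. Nothing in the labels says that the libraries of a group came from separate cultures, so the p-values measure the spread between these libraries only. No library in this experiment was cooled or treated with a chemotherapeutic agent.

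Both proteins carry a single RNA recognition motif followed by an arginine- and glycine-rich tail. They are made in larger amounts under mild hypothermia, bind mRNAs, and influence how long those mRNAs last and how well they are translated. In the heart, CIRBP has been tied to protection of stressed cardiomyocytes and to repolarization, and outside the cell the CIRBP protein acts as an inflammatory signal through TLR4.

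CIRBP (ENSG00000099622) lies on the plus strand of chr19:1259384-1274880 (GRCh38, GENCODE 29), where 46 transcripts of 334 to 3528 bases are annotated. Of these, 22 are protein coding, 13 are marked for nonsense-mediated decay and 10 retain an intron. RBM3 (ENSG00000102317) lies on the plus strand of chrX:48574449-48579066 and has 11 annotated transcripts, of which 3 are protein coding. The deposited annotation gives CIRBP 17 and RBM3 25 gene ontology terms, of which 13 are shared, among them RNA binding, response to cold and translation repressor activity. Stress granule assembly and mRNA stabilization are listed for CIRBP alone, and ribosomal large subunit binding for RBM3 alone.

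The sequence match of the pair bears on whether reads of one gene could be assigned to the other. The stretch below is where the coding sequences share their longest run, 11 bases. Over whole transcripts, untranslated parts included, the longest shared run was 14 bases. The coding run lies in exon 4 of 7 in both the CIRBP-201 transcript of 1328 bases and the longest coding transcript of RBM3, of 2162 bases, inside the part that codes for the end of the RNA recognition motif. Capitals mark bases that are identical in both genes, and the stretches are chr19:1271353-1271381 and chrX:48576338-48576366 of GRCh38, read 5′ to 3′ on the plus strand.
CIRBP: GTaGAcCAgGCAGGCAAGTCgtCagacaa
RBM3: GTgGAtCAtGCAGGCAAGTCtgCtcgggg
Of the 29 bases printed, 18 were identical. The coding sequences of these transcripts, of 516 bases in CIRBP and 471 in RBM3, were 70.6% identical over 456 aligned bases, and no 31-base word occurred in transcripts of both genes. None of the 6974 words of CIRBP occurred in another annotated gene, whereas 286 of the 3924 words of RBM3, 7.29%, did. The sequence of the siRNA was not used here, so whether it could act on RBM3 was not tested.

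Estimated counts summed to between 25726259 and 29919566 per library, and no pair of libraries agreed within sampling noise. Of 17 cardiomyocyte markers, 3 reached a TPM (a level per transcript length that sums to the same total in each library) of 1 in every library. These were GATA4 at 22.6 to 63 TPM, ACTN2 at 7.86 to 15.9 TPM and NKX2-5 at 3.39 to 9.69 TPM over the 6 libraries. MYH6, MYL2, PLN, RYR2, TTN and MYBPC3 were listed at 0 TPM in all 6. The summed TPM of the 17 markers was 72.8 to 89.9 in NC and 41.3 to 61.3 in SiCIRBP libraries. For 8 fibroblast markers it was 4175 to 4486 and 3997 to 5723. Most of the fibroblast sum was VIM alone, at 2754 to 3178 TPM in NC and 2724 to 3663 in SiCIRBP libraries. COL1A1 was next at 584 to 704 TPM in NC, and POSTN was at most 0.38 TPM in any library. All 4 endothelial markers summed to at most 5.22 TPM and all 4 leukocyte markers to at most 13.2 TPM in any library. The 16 interferon-stimulated genes examined lay a median log2 3.79 above the NC mean in SiCIRBP_2, 1.05 above it in SiCIRBP_3 and −0.87 from it in SiCIRBP_1. Their summed TPM was 643 to 668 in NC and 335 to 6572 in SiCIRBP libraries, and their part in the values below was not tested.

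CIRBP, the gene the siRNA was aimed at, fell, and the highest of its SiCIRBP values lay below the lowest of its NC values. It had 2464, 2209 and 2773 estimated counts in NC_1, NC_2 and NC_3, and 1599, 625 and 1299 in SiCIRBP_1, SiCIRBP_2 and SiCIRBP_3. Scaled by library size as normalized counts (CPM), these were 86.4, 85.8 and 91.0 in NC and 54.8, 24.3 and 46.3 in SiCIRBP. The NC libraries lay close together and the SiCIRBP libraries did not, with SiCIRBP_2 lowest by a wide margin. As a share of the NC mean, 62.4% of CIRBP remained in SiCIRBP_1, 27.7% in SiCIRBP_2 and 52.8% in SiCIRBP_3. The counting error of 1 library was between 1.90% and 4% of the CIRBP count, so the gaps between SiCIRBP libraries exceed it. In bulk RNA, fewer cells with the transcript and less transcript per cell cannot be told apart.

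Mean CIRBP was 88.4 ± 3.66 CPM in NC and 50.5 ± 6.0 CPM in SiCIRBP (SD, n = 2 each), 1.75-fold lower. The log2 fold change was −0.81 (SE 0.11, 95% interval −1.07 to −0.55), with an adjusted p = 0.00828 in edgeR's quasi-likelihood test. The background is wide: 9.76% of the 15421 genes tested were called lower in these 4 libraries at an adjusted p under 0.05, and CIRBP stood 339th by p-value, with 906 genes lower by more. Over all 6 libraries the means were 87.7 ± 2.83 and 41.8 ± 15.7 CPM (SD, n = 3 each), and the log2 fold change was −1.07 (SE 0.26) with an adjusted p = 0.103. The SiCIRBP_2 library thus made the difference larger and its error larger still. The call over 4 libraries was lost without NC_2 (−0.85, edgeR's adjusted p = 0.0576) or without NC_3 (−0.77, edgeR's adjusted p = 0.106). In the edgeR test over all 6 libraries 0% of genes were called, although 3603 of 15217 had an unadjusted p under 0.05, while DESeq2 called 10% of genes, 5.09% as lower, and gave CIRBP −1.06 with an adjusted p = 0.00411. Groups of normalized counts that do not overlap, with SiCIRBP lower, were found for CIRBP and for 16.6% of all genes.

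Per transcript length, CIRBP fell further than in counts. Its TPM was 134, 133 and 149 in the NC libraries and 62.1, 22.5 and 57.8 in SiCIRBP_1, SiCIRBP_2 and SiCIRBP_3. These are 44.8%, 16.2% and 41.6% of the NC mean, each below the share that remained in counts, and the groups did not overlap, which held for 23.5% of genes with SiCIRBP lower. Ranked by TPM among detected genes, CIRBP stood between the 94.7th and 95.5th percentile in NC and between the 77.5th and 88.9th in SiCIRBP libraries. On the log2(TPM + 0.1) scale the difference over 4 libraries was −1.23 (SE 0.10), with an adjusted p = 0.0173 in limma, where 7.06% of 13435 genes were called lower. The median gene shifted by −0.11 on this scale, and relative to it CIRBP differed by −1.13. This call was lost without NC_2 (limma's adjusted p = 0.242), NC_3 (0.220) or SiCIRBP_3 (0.0586). Over 6 libraries the difference was −1.68 (SE 0.36) with an adjusted p = 0.122, the median gene shifted by −0.14, and no gene was called, with 3118 at an unadjusted p under 0.05. By exact permutation over the 6 libraries, two-sided, the CIRBP difference had p = 0.1 in both CPM and TPM, the smallest that 3 against 3 libraries allow (0.175 adjusted over 7 comparisons).

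**Figure D1:**
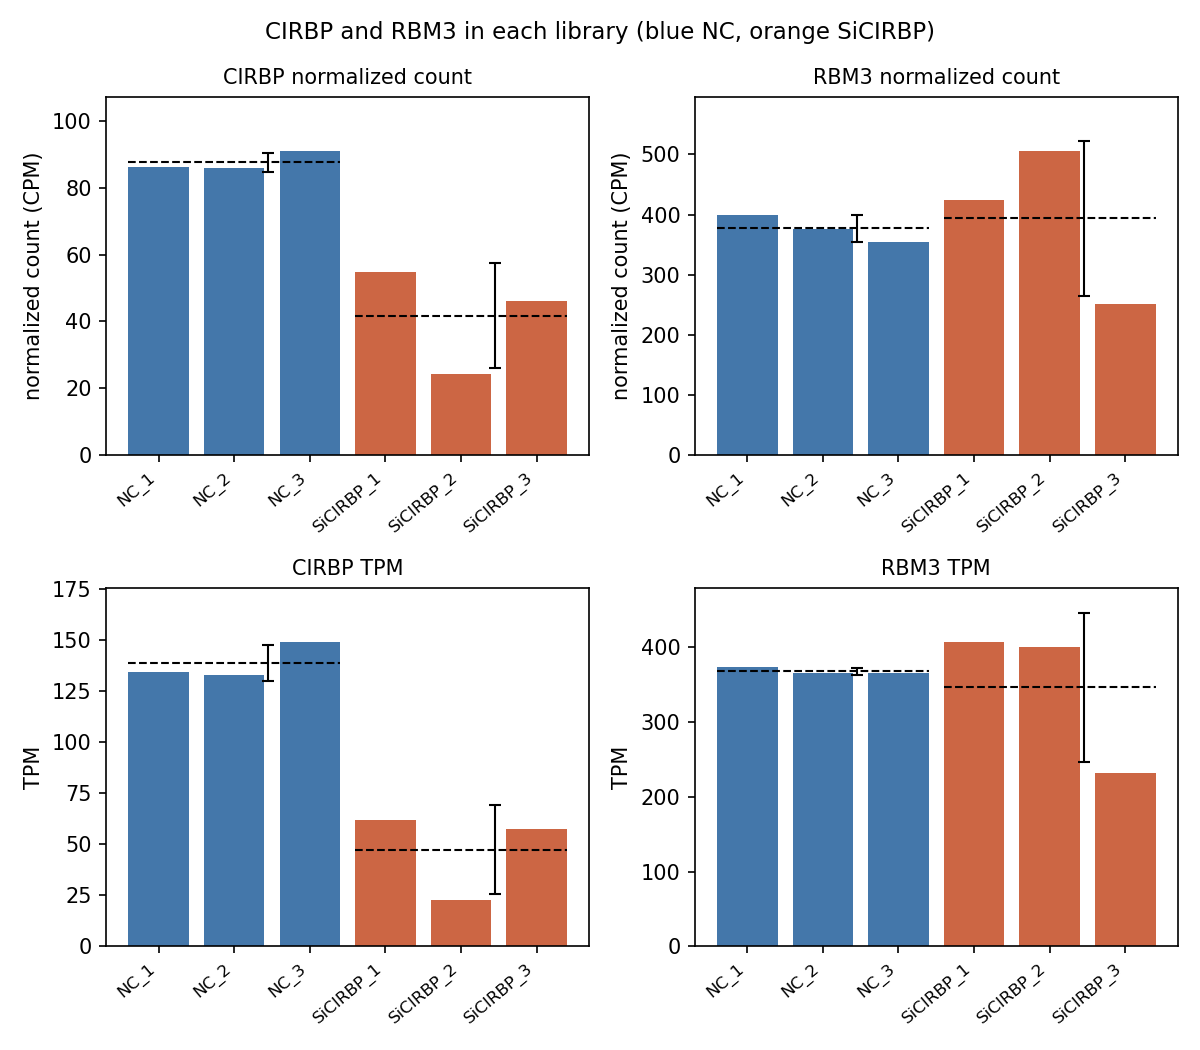
Normalized counts (CPM, upper panels) and TPM (lower panels) of CIRBP and RBM3 in each library, with NC in blue and SiCIRBP in orange; dashed lines are group means over 3 libraries and bars with caps their SD. CIRBP is lower in all 3 SiCIRBP libraries, lowest in SiCIRBP_2 at 24.3 CPM, while RBM3 is above the NC libraries in SiCIRBP_1 and SiCIRBP_2 and below them in SiCIRBP_3.

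RBM3, the relative that was not targeted, did not move one way. Its estimated counts were 11411, 9703 and 10821 in NC_1, NC_2 and NC_3, and 12375, 12992 and 7067 in SiCIRBP_1, SiCIRBP_2 and SiCIRBP_3. In CPM these were 399.9, 377 and 355 in NC and 424, 505 and 252 in SiCIRBP. SiCIRBP_1 and SiCIRBP_2 lay above all NC libraries and SiCIRBP_3 lay below all of them, at 112%, 134% and 66.7% of the NC mean in library order. The group means were 377 ± 22.5 CPM in NC and 394 ± 129 CPM in SiCIRBP (SD, n = 3 each). The spread relative to the mean was thus 5.96% in NC and 32.9% in SiCIRBP, against a counting error of at most 1.19% of the RBM3 count in any library.

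Over 4 libraries, the log2 fold change of RBM3 was −0.11 (SE 0.22, 95% interval −0.63 to 0.40; edgeR's adjusted p = 0.739). Over 6 libraries it was 0.06 (SE 0.23, 95% interval −0.47 to 0.59; edgeR's adjusted p = 0.887). A change of RBM3 was therefore not detected, and these intervals include both a rise and a fall by 0.40 on the log2 scale. A single library decided the sign and the call. Without SiCIRBP_1, the lone SiCIRBP library SiCIRBP_3 against NC_2 and NC_3 gave −0.55 (edgeR's adjusted p = 4.17e-12). Without SiCIRBP_3, the lone SiCIRBP_1 gave 0.21 (edgeR's adjusted p = 0.0104). In both of these fits the lone library was assumed to vary like the NC libraries.

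RBM3 TPM was 374, 366 and 366 in the NC libraries and 407, 401 and 232 in SiCIRBP_1, SiCIRBP_2 and SiCIRBP_3. The NC libraries differed by little, 368 ± 4.60 (SD, n = 3), and SiCIRBP_3 again stood alone below them. On the log2(TPM + 0.1) scale the difference was −0.25 (SE 0.25) over 4 libraries, with limma's adjusted p = 0.515. It was −0.66 without SiCIRBP_1 (limma's adjusted p = 0.0442) and 0.15 without SiCIRBP_3 (limma's adjusted p = 0.150). Over 6 libraries it was −0.13 (SE 0.21) with limma's adjusted p = 0.715, close to the shift of the median gene. By exact permutation over 6 libraries RBM3 had p = 1 in both CPM and TPM.

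RBM3 was the more abundant transcript of the pair in every library. It also ranked first by mean TPM among 36 tested genes whose symbol is RBM followed by a number. The RBM3 to CIRBP ratio of TPM, which needs no scaling between libraries, was 2.78, 2.75 and 2.45 in NC_1, NC_2 and NC_3. It was 6.55, 17.8 and 4.01 in SiCIRBP_1, SiCIRBP_2 and SiCIRBP_3, so every SiCIRBP library lay above every NC library. The fall of CIRBP TPM, without overlap as in 23.5% of genes, enters this ratio, so it is not a separate result. The mean difference in log2 ratio was 1.55 over 6 libraries (exact permutation test, two-sided, p = 0.1, the smallest possible). Without SiCIRBP_2 it was 0.95. In SiCIRBP_2 a low CIRBP and an unreduced RBM3 coincided, and in SiCIRBP_3 the lower RBM3 kept the ratio nearest to NC.

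**Figure D2:**
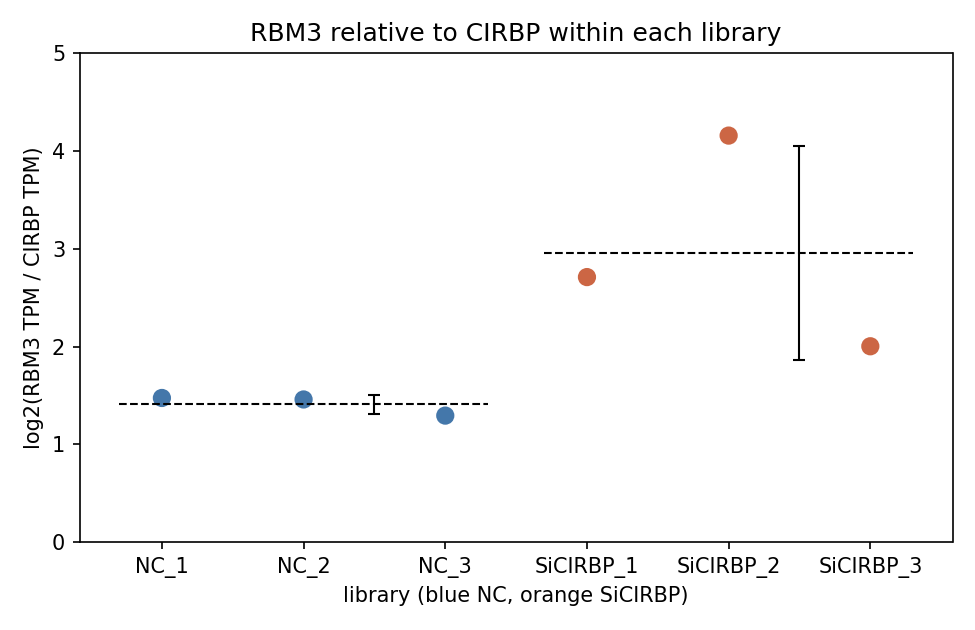
The log2 ratio of RBM3 TPM to CIRBP TPM within each library, NC in blue and SiCIRBP in orange, with dashed group means over 3 libraries and bars for the SD. NC libraries lie between 1.30 and 1.48, and SiCIRBP libraries at 2.71, 4.16 and 2.00.

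CIRBP transcripts were assigned a greater mean length in SiCIRBP libraries. Dividing a gene's estimated count by its TPM gives a value proportional to the mean effective length of the transcripts its reads were assigned to, and genes with 1 annotated transcript were used to put that value in bases. The implied length of CIRBP was 1089, 1094 and 1071 bases in NC_1, NC_2 and NC_3, and 1346, 1448 and 1253 bases in SiCIRBP_1, SiCIRBP_2 and SiCIRBP_3. The groups did not overlap, and the means were 1085 ± 12.2 and 1349 ± 97.4 bases (SD, n = 3 each), a difference of 264 bases. For comparison, 6.33% of 12838 genes had implied lengths whose lowest SiCIRBP value exceeded the highest NC value. Over the 4 libraries the means were 1083 and 1300 bases. The library with the least CIRBP, SiCIRBP_2, had the longest implied length, and SiCIRBP_3 had less CIRBP than SiCIRBP_1 in both CPM and TPM but a shorter implied length.

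On the log2 scale, centred on the median gene, the implied effective length of CIRBP differed by 0.31 (SE 0.06) over 4 libraries and by 0.38 (SE 0.07) over 6. Neither passed limma's test across genes, with adjusted p = 0.292 and 0.261. In those tests 0% of genes were called, with 1590 of 13088 and 1400 of 12838 at an unadjusted p under 0.05. The exact permutation test over 6 libraries gave p = 0.1, the smallest possible. In simulated data, 35.5% of genes given a log2 length change of 0.4 were recovered with 4 libraries and 58.5% with 6. With 0% of genes called in the real libraries, these shares do not carry over to them.

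Of the 46 annotated CIRBP transcripts, 12 are longer than the longest mean length in NC. Of these, 7 are protein coding, 3 are marked for nonsense-mediated decay and 2 retain an intron. No value per transcript is listed, so which of the 46 transcripts gained or lost reads was not measured. Beside CIRBP, the antisense gene CIRBP-AS1 (ENSG00000267493, minus strand, chr19:1267814-1270241) overlaps its span by 2428 bases. It had 57, 19 and 32 counts in NC and 47, 32 and 51 in SiCIRBP libraries, and its implied length was 992 to 995 bases in NC and 991 to 992 bases in SiCIRBP libraries. Whether strand was used in counting is not given in the sources used here. In the annotation used here, none of the 6974 words of CIRBP occurred in another gene on either strand, so none occurred in CIRBP-AS1. The authors' annotation release may differ, and how their counting assigned reads was not examined. Whether reads of CIRBP-AS1 entered the CIRBP values was not tested. Antisense reads from outside the annotated transcripts were not examined.

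The implied length of RBM3 was 1639, 1589 and 1553 bases in NC_1, NC_2 and NC_3, and 1545, 1646 and 1608 bases in SiCIRBP_1, SiCIRBP_2 and SiCIRBP_3. The groups overlapped, and the means were 1594 ± 43.2 and 1599 ± 51.0 bases (SD, n = 3 each). The log2 difference was −0.02 (SE 0.03) over 4 libraries and −0.01 (SE 0.04) over 6, with 95% intervals of −0.12 to 0.09 and −0.11 to 0.09. The minus-strand gene AC115618.1 overlaps RBM3 by 412 bases and had at most 12 counts in any library.

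**Figure D3:**
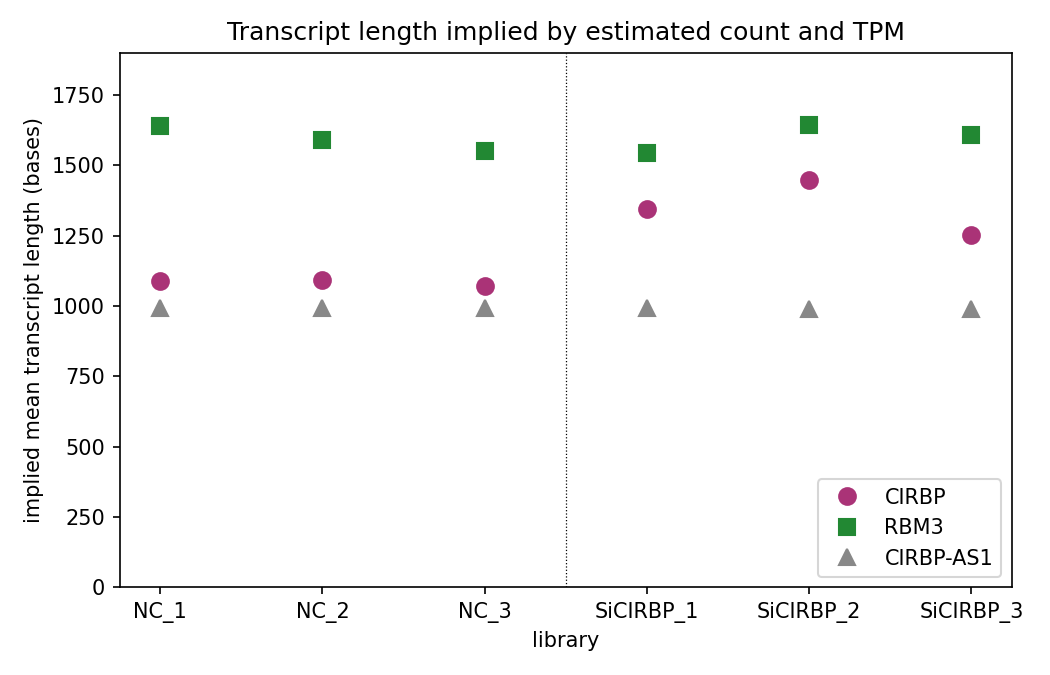
Mean transcript length in bases implied by estimated count and TPM, for CIRBP (circles), RBM3 (squares) and CIRBP-AS1 (triangles) in each library, with the dotted line dividing NC from SiCIRBP. CIRBP lies between 1071 and 1094 bases in NC and between 1253 and 1448 in SiCIRBP, the RBM3 groups overlap, and CIRBP-AS1 stays between 991 and 995 bases.

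Genes known as targets, regulators, relatives or partners of CIRBP and RBM3 were then counted, in 7 lists with 47 genes tested. Over 4 libraries 11 were called higher and 4 lower by edgeR, 31.9% of those tested. Of all genes tested 19.4% were called, 9.62% as higher and 9.76% as lower. The lists were chosen with earlier results of these data known, and they include OGFR, which the study picked from these same libraries. The difference between these shares is therefore no test of the lists. The counts per list below are of few genes and were not tested against the shares of all genes. Their median log2 fold change was 0.12 beside −0.0020 for all genes. Over 6 libraries edgeR called 0 of these and DESeq2 called 8. With 1 of the 4 libraries left out, the calls numbered 2 without NC_2, 1 without NC_3, 30 without SiCIRBP_1 and 26 without SiCIRBP_3.

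Among the CIRBP mRNA targets, 2 of 8 tested rose and 0 fell, where 9.62% of all genes tested were called higher and 9.76% lower. The study picked OGFR, the opioid growth factor receptor, from these same libraries and its proteomics data. It then measured OGFR by qPCR and western blotting. Here OGFR was at 65.5, 63.9 and 65.3 CPM in NC and 142, 311 and 180 CPM in SiCIRBP, with a log2 fold change of 1.32 over 4 libraries. TXN, which encodes the redox protein thioredoxin, measured 123, 106 and 97.3 CPM in NC and 144, 193 and 182 CPM in SiCIRBP, a log2 fold change of 0.68. The groups of both genes did not overlap, as for 16.2% of all genes with SiCIRBP higher. HIF1A, the oxygen-regulated transcription factor, was at −0.32 (edgeR's adjusted p = 0.0580). Among the RBM3 mRNA targets, 1 of 4 fell, and it was the angiogenic factor VEGFA, at −0.75. RTN3, a reticulon whose translation RBM3 promotes in neurons, was at 0.09 over 4 libraries and −0.13 over 6. The chemokine CXCL8 was at −0.84 over 4 libraries and 0.46 over 6, with SiCIRBP_2 highest at 12.0 CPM, and neither gene passed in either fit.

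Among the regulators and modifiers, 2 of 11 tested rose and 2 fell. For this list and the next ones, the shares of all genes were 9.62% higher and 9.76% lower. The splicing factors HNRNPH1 and SRSF5 each rose by 0.41 on the log2 scale over 4 libraries. Over 6 libraries the groups of both overlapped, and HNRNPH1 was at 0.25 (DESeq2's adjusted p = 0.273) and SRSF5 at 0.37 (DESeq2's adjusted p = 0.188). SP1, the GC box transcription factor, was lower, with a log2 fold change of −0.55, and CLK1, a temperature-sensitive kinase of splicing factors, was lower with −0.68. The RRM relatives, proteins with the same RNA recognition motif, had 3 of 8 higher and 0 lower, namely RBMX at 0.35, RBMXL1 at 0.62 and TRA2B at 0.50. Over 6 libraries DESeq2 called RBMXL1 (DESeq2's adjusted p = 0.0301) but not RBMX (0.184) or TRA2B (0.0834). RBMXL1 is a near copy of RBMX, so the split of reads between these genes is uncertain. Among the cold-shock domain proteins, which share the name but not the fold of CIRBP and RBM3, 1 of 4 tested rose, YBX1 at 0.31. Over 6 libraries its groups overlapped and it was at 0.19 (DESeq2's adjusted p = 0.349). YBX3 was at −0.20 without passing.

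CIRBP moves to stress granules, and of 10 stress granule proteins 3 rose and 1 fell, beside 9.62% higher and 9.76% lower of all genes. G3BP2, a nucleator of these granules, measured 89.5, 82.2 and 73.5 CPM in NC and 143, 169 and 161 CPM in SiCIRBP, a log2 fold change of 0.97. The groups of G3BP2 did not overlap, as for 16.2% of all genes with SiCIRBP higher. Of the 10 in this list, 4 were higher and 1 lower without overlap. Its paralog G3BP1 and UBAP2L each rose by 0.36, and ATXN2 was lower with −0.71. Over 6 libraries the groups of G3BP1 overlapped and it was at 0.20 (DESeq2's adjusted p = 0.379). UBAP2L was not called over 6 libraries either (DESeq2's adjusted p = 0.0954). Of the receptors of extracellular CIRBP, 2 were tested and 0 were called. TLR4 was at 0.13 over 4 libraries and 0.81 over 6, IL6R at −0.47 and −0.78, and the TLR4 level of 94.6 CPM in SiCIRBP_2 stood apart from at most 34.1 CPM in any other library.

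**Figure D4:**
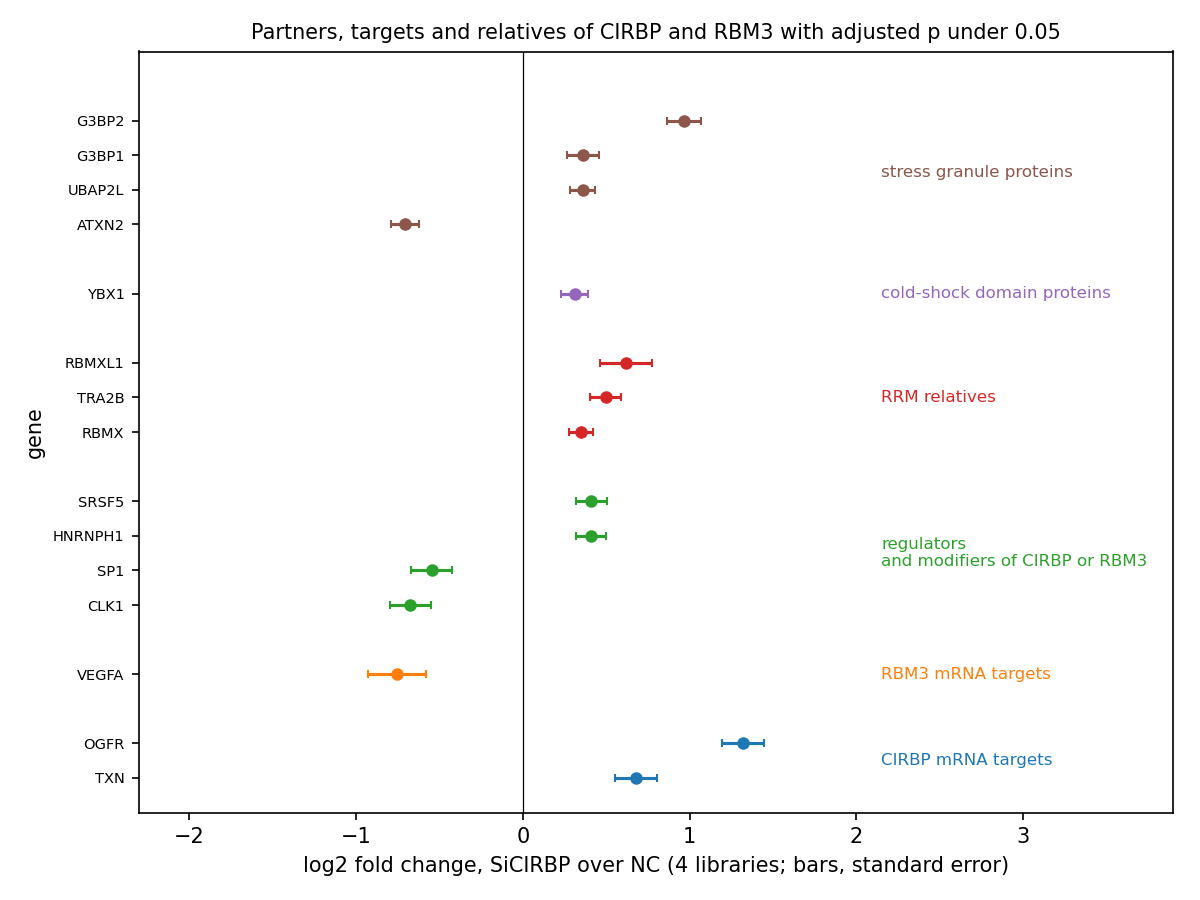
Log2 fold change of SiCIRBP over NC in 4 libraries for the 15 genes called at an adjusted p under 0.05, of 47 tested in 7 lists of targets, regulators, relatives and partners of CIRBP and RBM3; bars are the SE, and genes that did not pass are not drawn. Points number 11 on the right and 4 on the left, with OGFR farthest right among them at 1.32.

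The pattern over the 6 libraries set CIRBP among many genes and RBM3 among few. Of 1976 genes with a mean of at least 10 CPM and enough spread to compare, 223 had a Pearson correlation over 0.95 with CIRBP in log2 CPM. Those nearest to it were AC011529.1 (ENSG00000065989, which the name table used here calls PDE4A) with r = 0.999, LRRFIP1 with 0.996, and CHD6, PDK1 and OXCT1. For RBM3, 10 of 6844 genes passed 0.95, and those nearest were SET and EIF4H with r = 0.979 each, AC010646.1, SCOC and AC048338.1. The points are the same 6 libraries for every gene and share their library scaling, so these values describe likeness only. EIF4H, a translation initiation factor, measured 646, 626 and 591 CPM in NC and 648, 769 and 371 CPM in SiCIRBP, with SiCIRBP_2 highest and SiCIRBP_3 lowest as for RBM3. Of the 5 genes named for each, 1 stayed among the nearest 5 with Spearman correlation, and 1 on the TPM scale.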

How the data were processed

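RNA-seq data of 3 NC and 3 SiCIRBP libraries were used, grouped by the labels. The authors deposited estimated counts per gene, which are not normalized and not always whole, and TPM values, which scale these counts by effective transcript length and by library. The submitters' processing notes name fastp, HISAT, RSEM and hg38, without versions. The deposited table also holds a ratio (fold), log2 fold changes and p-values of the authors' own comparison, which were not used. Listed gene lengths equal a GENCODE 29 transcript length for 85.8% of matched genes, so the authors' annotation release may differ from the one used here for loci and sequences.

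Estimated counts were rounded and tested with edgeR 4.0.16 (R 4.3.3; TMM, filterByExpr, quasi-likelihood F test, Benjamini-Hochberg adjustment over all genes, calls at an adjusted p under 0.05). TPM was tested as log2(TPM + 0.1) for genes with a mean TPM of at least 1, and estimated count over TPM as a log2 value centred on the median gene for genes with at least 20 counts in every library, both with limma 3.58.1 with trend. Lengths in bases were scaled on 350 genes with 1 transcript and at least 100 counts, of which 67.1% to 68.6% came within 5% of their annotated length. DESeq2 1.42.0, RLE size factors, other filters and pseudocounts, a replicate block and each library left out were alternatives. Single values were compared by exact permutation. Coding sequences were aligned with Biopython 1.88. The procedures were tested on simulated data: edgeR recovered 85% of 200 genes changed by a log2 of 1.5 with 4 libraries (15119 genes) and 82.5% with 6 (14986 genes). In the real 6 libraries edgeR called 0 of 15217 genes, and OGFR, at a log2 fold change of 1.70, had edgeR's adjusted p = 0.0869. The simulated recovery therefore does not carry over to these libraries.

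From the lists, members that passed over 4 libraries were named and, where fewer than 3 passed, those with the highest mean CPM up to 3, with the 5 genes most alike in pattern to each of CIRBP and RBM3 and the genes that overlap them. A gene that this rule names is not reported here. The members, lists and tests were chosen with earlier results of these data known. Replicate numbers did not pair the samples. Counting errors, taken as the square root of a count, cover counting only. Protein sequences and the proteomics data were not analysed here.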

Additional observations from a re-analysis of the deposited data

How the results depend on the processing

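CIRBP was lower in CPM and in TPM under every alternative run, and its implied length was higher in every one; the calls were less stable. With all 6 libraries the CIRBP count change was −1.07 (edgeR's adjusted p = 0.103), that of RBM3 0.061, and the TPM change of CIRBP −1.68 (limma's adjusted p = 0.122), with 0 genes and 0 list members called. DESeq2 over 6 libraries gave RBM3 0.069, 1522 genes and 8 list members. Without a filter on low counts 4615 genes were called against 2989, and without one on low TPM the CIRBP change of −1.23 had an adjusted p = 0.109. Scaled on one-transcript genes, the RBM3 length change was 0.0058.

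Samples with the same replicate number deviated with correlations of −0.10, 0.02 and −0.02, so the numbers were not taken to pair them. With the replicate block over 6 libraries CIRBP was at −1.15 in counts (edgeR's adjusted p = 0.140) and −1.68 in TPM (limma's adjusted p = 0.222), RBM3 at 0.0037, with 1 gene and 0 list members called.

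Leaving out each library in turn, from the 4 and from the 6, CIRBP ranged from −1.31 to −0.70 in counts and from −1.94 to −1.15 in TPM. RBM3 ranged from −0.55 to 0.31 in counts, from −0.66 to 0.15 in TPM and from −0.046 to 0.021 in length. Genes called ranged from 0 to 7048 and list members from 0 to 30. From the 4 libraries, CIRBP counts lost the call without NC_2 (adjusted p = 0.0576) or NC_3 (0.106), genes called numbered 168 and 64, and list members 2 and 1. Without SiCIRBP_1 or SiCIRBP_3 they numbered 7048 and 6418, and list members 30 and 26. From the 6 libraries, CIRBP was called only without SiCIRBP_2, in counts (−0.80, edgeR's adjusted p = 0.0162) and in TPM (−1.21, limma's adjusted p = 0.0214); 1118 genes and 4 list members were then called. The cause of these shifts was not tested. With 2 libraries per group, the spread of a gene is estimated partly from other genes.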
